A study of Mus musculus with 4 samples.

Results

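Glycogen synthesis and breakdown was followed through 7 genes, Gys2, Pygl, Gbe1, Ugp2, Ppp1r3b, Ppp1r3c and Phka2. The rows were taken by exact match of the gene symbol, and all 7 were found among the 24138 rows of the deposited table. The study measured total liver RNA from 4 male C57BL/6J mice aged 18 weeks by bulk RNA sequencing of poly(A)-selected libraries. All 4 animals had received the FAT-MASH diet, which is used to produce metabolic dysfunction-associated steatohepatitis, and had been treated with RvD1 (resolvin D1), a lipid mediator of the resolution of inflammation. The diet and the treatment were thus shared by every sample, no other group was analysed here, and the values describe levels and their spread between animals. The livers are numbered 1 to 4 as in the labels. The labels do not say whether the mice came from separate cages or litters.

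Glycogen is the branched glucose polymer that hepatocytes store after a meal and break down between meals to keep blood glucose steady. Ugp2 makes UDP-glucose, Gys2 (the liver glycogen synthase) adds it to the growing chain, and Gbe1 introduces the branches. Pygl (the liver glycogen phosphorylase) releases glucose 1-phosphate and is switched on by phosphorylase kinase, whose liver-type regulatory alpha subunit is Phka2. Ppp1r3b and Ppp1r3c carry protein phosphatase 1 to the glycogen particle, where the phosphatase activates the synthase and inactivates the phosphorylase. These enzymes are strongly controlled by phosphorylation and by metabolites, which RNA levels do not measure.

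Promoter sequences were matched by symbol in RefSeq (GRCm38.p6) for 5 of the 7 genes, and Gys2 and Ppp1r3b were not matched. The 3 printed below belong to the most abundant gene (Pygl), to the gene with the highest ratio of highest to lowest FPKM (Ppp1r3c, 2.66, close to 2.64 for Ppp1r3b) and to the gene with the lowest (Phka2, 1.12). Without liver 2 the ratio of Ppp1r3c was 1.40, and on the log2(FPKM + 1) scale the SD of Ppp1r3b was the wider one. Each shows the 250 bases before the transcription start, 5′ to 3′ on the gene's strand. Capitals mark matches, on either strand, to any of 4 motifs. The first was CACGTG, the E-box bound by the clock factors and by the carbohydrate response factor ChREBP. The second was the GC box, searched as GGGCGG and known as a site of Sp1-type factors. The third was the CCAAT box, searched by the letters of its name. The fourth was the core of the cAMP response element, searched as TGACG. The full cAMP response element, searched as TGACGTCA, contains that core, and the TATA box was searched as TATAAA.
Pygl (chr12:70227684-70227933, minus strand): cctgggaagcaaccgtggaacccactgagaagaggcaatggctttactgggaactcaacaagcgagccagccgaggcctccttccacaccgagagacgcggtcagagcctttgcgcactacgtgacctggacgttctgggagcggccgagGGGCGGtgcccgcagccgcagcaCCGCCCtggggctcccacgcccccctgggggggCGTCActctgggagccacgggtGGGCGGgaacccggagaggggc
Ppp1r3c (chr19:36736605-36736854, minus strand): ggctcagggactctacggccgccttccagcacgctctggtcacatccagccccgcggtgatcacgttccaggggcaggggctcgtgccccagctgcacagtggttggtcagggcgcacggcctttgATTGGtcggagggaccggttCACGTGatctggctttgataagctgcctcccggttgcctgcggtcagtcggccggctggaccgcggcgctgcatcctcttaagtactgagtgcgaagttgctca
Phka2 (chrX:160501912-160502161, plus strand): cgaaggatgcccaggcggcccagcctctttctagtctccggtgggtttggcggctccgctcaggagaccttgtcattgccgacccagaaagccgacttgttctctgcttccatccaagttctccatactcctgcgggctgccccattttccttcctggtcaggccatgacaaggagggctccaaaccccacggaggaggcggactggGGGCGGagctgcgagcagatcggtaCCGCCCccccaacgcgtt

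The Ppp1r3c sequence held the E-box from 104 to 99 bases before the start and a CCAAT box, read on the opposite strand, from 124 to 120 bases before it. The E-box was present in 6.02% of 32851 RefSeq promoter windows of this length and the CCAAT box in 33.8%. The Pygl sequence held 3 GC boxes and 1 core of the cAMP response element, and the Phka2 sequence held 2 GC boxes. The GC box occurred in 32.7% of all windows and the core in 17.8%. Neither the full cAMP response element (1.55% of all windows) nor the TATA box (12.4%) was matched in the 3 printed sequences. A match describes the letters of the window and is no measurement of binding.

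Levels are given in FPKM, fragments per kilobase of transcript and relative to the mapped fragments of the library, a unit that is scaled by length and lets genes be set side by side. Depth was estimated from the low values at 18.8 to 20.1 M fragments per library (M, mega). A fixed range of low values was used, which limits what the estimate can return, so fragment numbers and counting errors below are rough. A total of 10541 genes had a mean of at least 1 FPKM and are called expressed here. Coordinates below are those of the deposited spans in mm10, and strands and exons are from GENCODE. Of 10 hepatocyte markers, 9 were expressed in all livers, with summed levels between 32908 FPKM (liver 2) and 42545 FPKM (liver 3), while Alb was listed at 0 throughout. Summed markers of macrophages (6 of 6 expressed) ranged from 176 to 254 FPKM, and those of endothelium (6 of 6) from 41.9 to 54.5 FPKM. The summed stellate cell and fibroblast markers (6 of 6) ranged from 191 to 295 FPKM. Liver 2 was the highest liver for each of 8 acute phase genes, whose summed level was 11511 FPKM there against 3028 to 4212 FPKM elsewhere. In whole liver RNA, fewer cells of a type and less RNA per cell cannot be told apart.

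The 7 genes fell into an abundant set of metabolic enzymes and a low set of regulatory subunits, with Ppp1r3b nearer the enzymes. Pygl was the most abundant at 194 ± 16.6 FPKM (SD, n = 4), rank 448 of the expressed genes. Ugp2 followed at 144 ± 12.6 FPKM, then Gys2 at 138 ± 22.5 FPKM and Gbe1 at 83.04 ± 7.73 FPKM (each SD, n = 4). Ppp1r3b had 63.995 ± 24.4 FPKM, Phka2 7.17 ± 0.353 FPKM and Ppp1r3c 5.98 ± 2.15 FPKM (each SD, n = 4). Of the 6 neighbouring pairs in this order, 3 had ranges over the livers that did not overlap. These were Pygl above Ugp2, Gys2 above Gbe1, and Ppp1r3b above Phka2. Ugp2 and Gys2, Gbe1 and Ppp1r3b, and Phka2 and Ppp1r3c overlapped, and each of these orders held in 3 of 4 livers. Without liver 3, 5 of the 6 neighbouring pairs were apart.

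**Figure D1:**
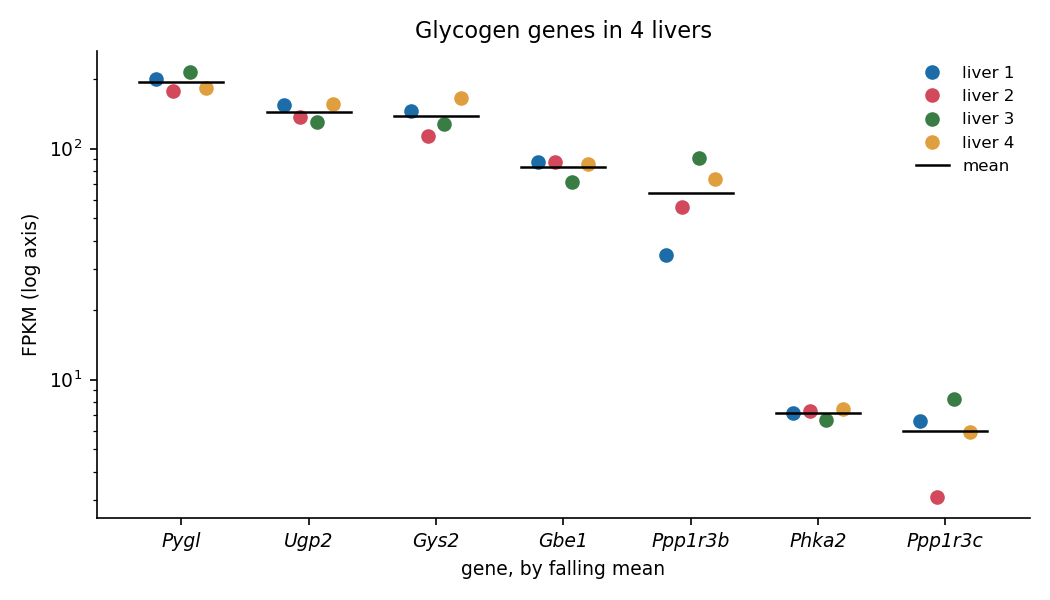
FPKM (log axis) of the 7 glycogen genes in livers 1 to 4 (points) with the mean (bar), ordered by falling mean. Pygl sits above Ugp2 in every liver, and Ppp1r3b and Ppp1r3c spread more widely than the other 5 genes.

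The spread between animals over all 4 livers was wider for both phosphatase targeting subunits than for Gys2 and smaller for the other 4 genes. The SD of log2(FPKM + 1) had a median of 0.14 over the 7 genes, beside 0.16 over all 10541 expressed genes. This order turned without liver 2 (0.16 beside 0.15) and without liver 4 (0.16 beside 0.15). It also turned with 5 in place of 1 added to the FPKM (0.13 beside 0.11), and with no minimum mean both were 0.14. As reported, the SD lay below the general median of 0.16 for Pygl (0.12), Ugp2 (0.13), Gbe1 (0.14) and Phka2 (0.06). It lay above 0.16 for Gys2 (0.23), Ppp1r3c (0.50) and Ppp1r3b (0.59). With 5 added to the FPKM, Pygl (0.12), Ugp2 (0.12) and Gbe1 (0.13) lay above the general median of 0.11, and the SD of Ppp1r3c was 0.30. Without liver 2 or liver 4, Gbe1 (0.16 in each) lay above the general median of 0.15. The SD of Ppp1r3b exceeded that of 99.1% of expressed genes and that of Ppp1r3c exceeded 98.5%, whereas that of Phka2 exceeded 5.996%. Single livers carried much of several spreads. The SD of Ppp1r3c was 0.22 without liver 2, beside 0.19 for Gys2, and the SD of Ppp1r3b was 0.35 without liver 1. Without liver 3 the SD was 0.03 for Phka2 and 0.01 for Gbe1. A ratio of at least 1.5 between the highest and the lowest liver was found for 2 of the 7 genes (Ppp1r3b and Ppp1r3c), beside 28.4% of expressed genes, so the count itself is near the background. The other 5 genes had ratios from 1.12 (Phka2) to 1.46 (Gys2).

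**Figure D2:**
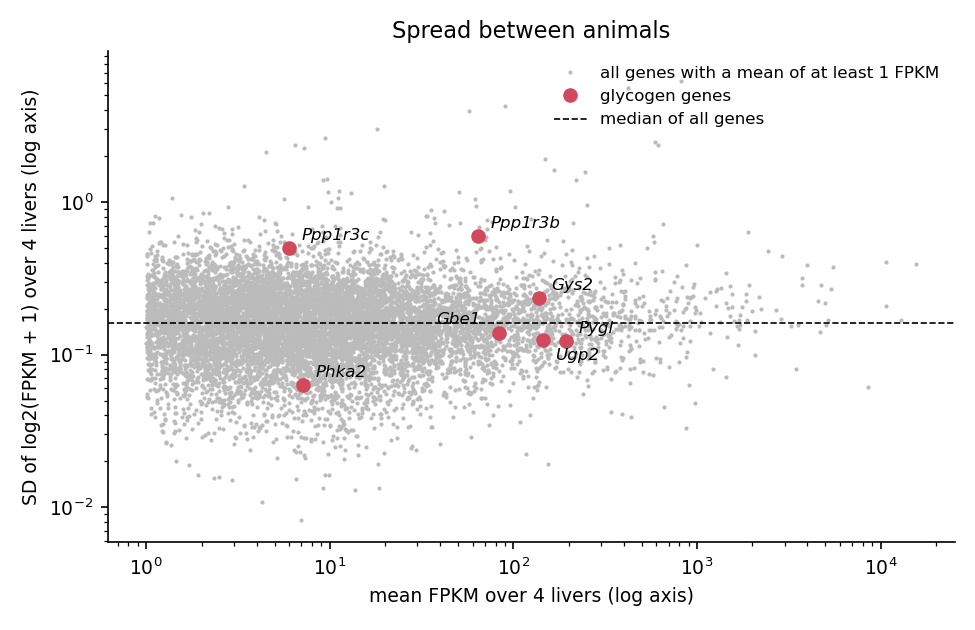
SD of log2(FPKM + 1) over 4 livers (log axis) against mean FPKM (log axis) for all expressed genes (grey) and the 7 glycogen genes (red), with the general median of 0.16 dashed. Ppp1r3b at 0.59 and Ppp1r3c at 0.50 lie in the upper part of the cloud and Phka2 at 0.06 in its lower part.

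Ugp2 (XLOC_003434), which supplies the activated glucose, had 155, 137, 130 and 156 FPKM from liver 1 through liver 4. Livers 1 and 4 were the higher ones, and the ratio of highest to lowest was 1.19. The deposited span of Ugp2 (chromosome 11, 21239032 to 21371267) is longer than the GENCODE gene (21321138 to 21371201, minus strand). It also covers the neighbouring gene Vps54, listed with the same span at 9.72 ± 1.96 FPKM (SD, n = 4). How fragments were assigned between these genes is not given in the sources used here. Upstream of Ugp2, the phosphoglucomutase gene listed as Pgm2 had 139, 144, 144 and 181 FPKM, highest in liver 4.

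Gys2 (XLOC_018278, chromosome 6, 142422613 to 142473109, minus strand, 17 exons in GENCODE) had 145, 113, 127 and 165 FPKM from liver 1 through liver 4. Liver 4 was highest and liver 2 lowest, with a ratio of 1.46. Gys1, the muscle-type synthase, was listed at 1.05, 0.960, 1.54 and 1.13 FPKM. Gys2 thus made up 99.1 ± 0.233% (SD, n = 4) of the summed synthase FPKM. Gyg, which encodes the self-glucosylating primer of the glycogen particle, had 7.33, 9.32, 5.83 and 7.92 FPKM. The ratio of Gys2 to Gyg was 12.2 in liver 2 and between 19.8 and 21.9 in the other livers.

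Gbe1 (XLOC_008032, chromosome 16, 70313949 to 70569720, plus strand, 14 exons), the branching enzyme, had 87.5, 87.1, 71.5 and 86.1 FPKM from liver 1 through liver 4. Livers 1, 2 and 4 were within 1.02-fold of each other, and liver 3 lay below them. By Dixon's ratio of the gap to the range on the log2 scale, at the 95% critical value for 4 samples, Gbe1 was the only 1 of the 7 genes with a liver apart, beside 5.46% of expressed genes. With median-ratio or upper-quartile scaling of the livers that number was 0.

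Pygl (XLOC_004870, chromosome 12, 70190815 to 70227683, minus strand, 20 exons), whose promoter is printed above, had 199, 178, 215 and 183 FPKM from liver 1 through liver 4. Liver 3 was highest and liver 2 lowest, with a ratio of 1.21. The brain-type gene Pygb had 4.05, 5.23, 4.52 and 3.20 FPKM and the muscle-type gene Pygm 1.51, 1.65, 1.33 and 1.16 FPKM. Pygl made up 97.1 ± 0.609% (SD, n = 4) of the summed phosphorylase FPKM. All 5 skeletal muscle markers were below 1 FPKM on average, and their summed level was between 0.0384 and 0.506 FPKM. Pygb was highest in liver 2, as were the summed markers of stellate cells and fibroblasts, of endothelium and of neutrophils. The summed markers of macrophages and of lymphocytes were highest in liver 4, and those of cholangiocytes in liver 1. Dcn alone had 194 of the 295 FPKM of stellate cell and fibroblast markers in liver 2. Within these lists Lrat was highest in liver 1, and Reln and Clec4g in liver 4. The part of other cell types in the level of Pygb was not tested.

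The synthase was below the phosphorylase in every liver. The ratio of Gys2 to Pygl was 0.729, 0.638, 0.593 and 0.901 in livers 1 to 4, and the within-liver difference of log2(FPKM + 1) was -0.50 ± 0.26 (SD, n = 4). Liver 4 had the ratio nearest to equality and liver 3 the lowest, and without liver 4 the SD of the log2 difference was 0.15. Ugp2 was close to Gys2, with a log2 ratio of Ugp2 to Gys2 of 0.08 ± 0.15 (SD, n = 4), and Ugp2 was the higher gene in livers 1, 2 and 3 and the lower in liver 4. Without liver 2 this ratio was 0.01 ± 0.09 (SD, n = 3). Gys2 exceeded Gbe1 in every liver, by 0.71 ± 0.24 on the log2 scale (SD, n = 4), and without liver 2 the SD was 0.10.

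**Figure D3:**
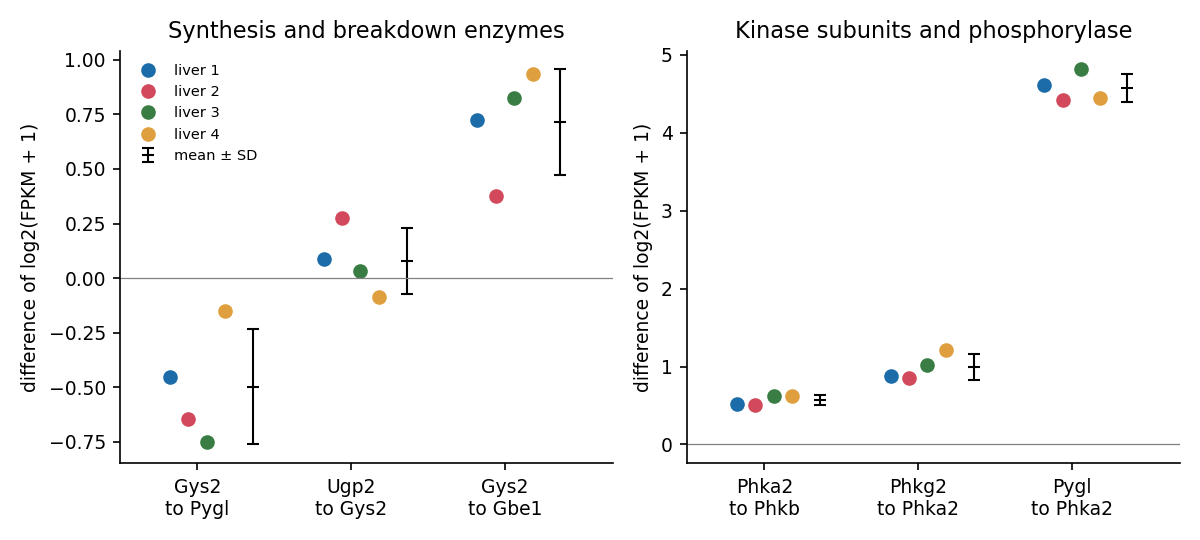
Within-liver differences of log2(FPKM + 1) for pairs of glycogen genes, with each liver as a point and the mean ± SD (n = 4) beside it. Gys2 to Pygl is below 0 in all livers and spreads by 0.26, while Phka2 to Phkb spreads by 0.06.

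Phka2 (XLOC_023497, chromosome X, 160502166 to 160598878, plus strand, 33 exons), the liver-type alpha subunit of phosphorylase kinase, had 7.18, 7.35, 6.67 and 7.48 FPKM from liver 1 through liver 4. The 4 livers were within 1.12-fold of each other. At the estimated depth these values stand for about 539.9 to 597.6 fragments, for which the counting error is 4.30% at the lowest liver. The coefficient of variation was 4.92%, and the rough depth does not allow a close comparison with the counting error. Phka1, the muscle-type alpha subunit, had 1.21, 1.14, 1.41 and 1.40 FPKM, so that Phka2 made up 84.8 ± 1.77% of the summed alpha subunit FPKM (SD, n = 4). The beta subunit gene Phkb had 4.53 ± 0.399 FPKM and the liver-type catalytic subunit gene Phkg2 15.3 ± 2.25 FPKM (each SD, n = 4). Phka2 exceeded Phkb by 0.57 ± 0.06 on the log2 scale, and Phkg2 exceeded Phka2 by 0.99 ± 0.17 (each SD, n = 4), with an SD of 0.09 without liver 4. The muscle-type catalytic gene Phkg1 was at most 0.184 FPKM. The phosphorylase was 27.1 ± 3.70 times as abundant as the alpha subunit of its kinase (SD, n = 4).

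Ppp1r3b (XLOC_020646, chromosome 8, 35375741 to 35388137, plus strand, 3 exons), the main hepatic glycogen-targeting subunit also known as GL, had 34.7, 55.8, 91.5 and 74.1 FPKM from liver 1 through liver 4. Liver 1 was lowest and liver 3 highest, with a ratio of 2.64. Without liver 1 the ratio of highest to lowest fell from 2.64 to 1.64. At the estimated depth the lowest value stands for about 2917 fragments and a counting error of 1.85%. The transcription factor gene Hnf4a, a hepatocyte marker, ordered the livers the same way, at 93.9, 104, 156 and 118 FPKM, and so did the glucose-releasing phosphatase gene G6pc, at 131, 134, 242 and 149 FPKM. This order of the livers was found for 4.35% of expressed genes. Hnf4a was the only 1 of the 9 expressed hepatocyte markers with it. G6pc was the only 1 with it among the 39 other expressed genes listed for glycogen and glucose handling. The 10 hepatocyte markers summed to 40378, 32908, 42545 and 40722 FPKM from liver 1 through liver 4. Of the 9 expressed markers, 3 were lowest in liver 1 (Apoa1, Hnf4a and Fgb), 3 in liver 2, 2 in liver 3 and 1 in liver 4. Their part in the level of Ppp1r3b was not tested.

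Ppp1r3c (XLOC_010894, chromosome 19, 36731731 to 36736604, minus strand, 2 exons), also known as PTG (protein targeting to glycogen), whose promoter with the E-box is printed above, had 6.62, 3.12, 8.28 and 5.91 FPKM from liver 1 through liver 4. Liver 2 was low and liver 3 high, with a ratio of 2.66. Without liver 2 the ratio was 1.40 and Ppp1r3c no longer reached 1.5. Liver 2 was also the liver with high acute phase transcripts, and a link to the level of Ppp1r3c was not tested. The lowest value stands for about 152 fragments, with a counting error of 8.11%. The clock genes Per1 (7.86, 6.41, 11.6 and 7.43 FPKM) and Per2 (7.54, 5.78, 8.82 and 6.41 FPKM) ordered the livers the same way as Ppp1r3c, an order shared by 5.87% of expressed genes. They were 2 of 8 expressed clock genes, and the other 6 had other orders, among them Nr1d1 and Dbp with liver 1 highest and liver 4 lowest. The time of tissue collection is not given in the sources used here, and its part in these levels was not tested.

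Both targeting subunit genes were highest in liver 3 and had the same order in livers 2 to 4, whereas liver 1 was lowest for Ppp1r3b and above the mean for Ppp1r3c. The log2 ratio of Ppp1r3b to Ppp1r3c was 2.23, 3.79, 3.32 and 3.44 in livers 1 to 4, a mean of 3.19 ± 0.67 (SD, n = 4). Without liver 1 the SD of this ratio was 0.24. In plain FPKM, Ppp1r3b was 5.24 times Ppp1r3c in liver 1 and 17.9 times in liver 2. Ppp1r3g, another targeting subunit gene (chromosome 13, 35967906 to 35970388), was listed at 8.86, 5.43, 2.02 and 3.96 FPKM. Its lowest value stands for about 86.5 fragments, with a counting error of 10.8%. It ordered the livers exactly opposite to Ppp1r3b, an order found for 307 expressed genes (2.91%). Ppp1r3e had 1.59 ± 0.136 FPKM (SD, n = 4), and Ppp1r3a, Ppp1r3d and Ppp1r3f had means from 0.0599 to 0.192 FPKM.

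The summed level of the 7 Ppp1r3 genes from liver 1 through liver 4 was 52.1, 66.4, 104 and 85.8 FPKM, so the sum varied 1.99-fold. Ppp1r3b contributed 66.6% of it in liver 1 and between 84.03 and 88.2% in the other livers. Ppp1r3c contributed 12.7, 4.70, 7.98 and 6.89%. Ppp1r3g contributed 17.01, 8.18, 1.95 and 4.61%, more than Ppp1r3c in livers 1 and 2 and less in livers 3 and 4. The catalytic subunit genes that these proteins bind were steadier, with Ppp1ca at 119 ± 9.09 FPKM, Ppp1cb at 28.3 ± 3.06 FPKM and Ppp1cc at 15.7 ± 1.12 FPKM (each SD, n = 4).

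**Figure D4:**
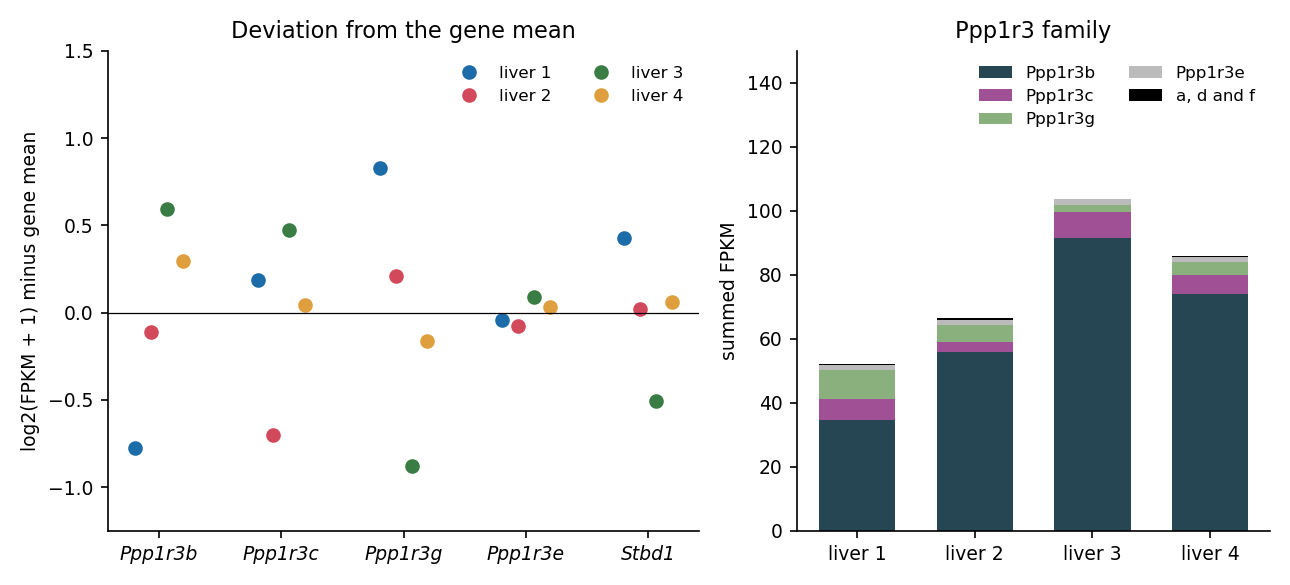
Left, deviation of log2(FPKM + 1) from each gene's mean in livers 1 to 4 for 4 targeting subunit genes and Stbd1. Right, FPKM of the 7 Ppp1r3 genes stacked by liver. Ppp1r3b is lowest in liver 1 and highest in liver 3, and Ppp1r3g the reverse.

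For the members with a ratio of at least 1.5, the genes with the most similar profile were sought among 6537 others with a mean of at least 5 FPKM. Likeness was the root mean square difference, over the 4 livers, of the deviations of log2(FPKM + 1) from each gene's mean. For Ppp1r3b the nearest was Alas1, which encodes the first enzyme of heme synthesis, at 223, 349, 497 and 460 FPKM and a difference of 0.09. Next came the mitochondrial carrier gene Slc25a30 (difference 0.10) and the peroxisomal gene Pex26 (0.13). For Ppp1r3c the nearest was Lhpp, at 13.4, 6.07, 14.7 and 10.9 FPKM and a difference of 0.06, followed by Creld2 (0.11) and Alkbh7 (0.13). Within a difference of 0.1 there was 1 gene for each member.

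The genes around the 7 were taken from 9 lists on uptake, chain synthesis, phosphorolysis, kinase subunits, phosphatase subunits, synthase kinases, lysosomal breakdown, glucose release and hormone receptors. Of 47 such genes followed here, 39 were expressed, with a median SD of 0.14 on the log2 scale. A ratio of at least 1.5 was found for 8 of the 39, beside the 28.4% of expressed genes, and 3 had a liver apart, beside 5.46%. The number past 1.5 was 5 without liver 2, where the share of all expressed genes was 19.04%, and 4 without liver 3, where it was 16.4%. The 8 were Gyg, Gys1, Pygb, Ppp1r3g, Stbd1, Epm2a, Epm2aip1 and G6pc. Among the 7 kinases listed for the synthase (Gsk3a, Gsk3b, Prkaca, Prkacb, Csnk2a1, Prkaa1 and Prkaa2), 0 reached 1.5, and their median SD was 0.13.

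Of 4 expressed lysosomal and quality control genes of glycogen, 3 reached 1.5, beside 28.4% of expressed genes. Each rested on single livers, since the ratio was 1.33 for Stbd1 without liver 3, 1.41 for Epm2a without liver 1 and 1.10 for Epm2aip1 without liver 4. Stbd1, which tethers glycogen to membranes, had 54.7, 41.03, 28.2 and 42.2 FPKM from liver 1 through liver 4. It was highest in liver 1 and lowest in liver 3, where Ppp1r3b was lowest and highest. Epm2a, which encodes the glycogen phosphatase laforin, had 1.06, 1.54, 1.67 and 2.16 FPKM. Gaa, the lysosomal glucosidase, varied little at 30.97 ± 1.03 FPKM (SD, n = 4).

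At the entry and exit of glucose, the transporter gene Slc2a2 had 153 ± 15.6 FPKM (SD, n = 4) and was lowest in liver 3. The hexokinase genes Hk1 and Hk3 were at 1.49 ± 0.174 and 1.26 ± 0.149 FPKM (each SD, n = 4). G6pc, which encodes the phosphatase of glucose release, was highest in liver 3, and its transporter partner Slc37a4 had 111 ± 8.36 FPKM (SD, n = 4). The glucagon receptor gene Gcgr had 117 ± 9.18 FPKM and the insulin receptor gene Insr 10.5 ± 1.19 FPKM (each SD, n = 4).

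**Figure D5:**
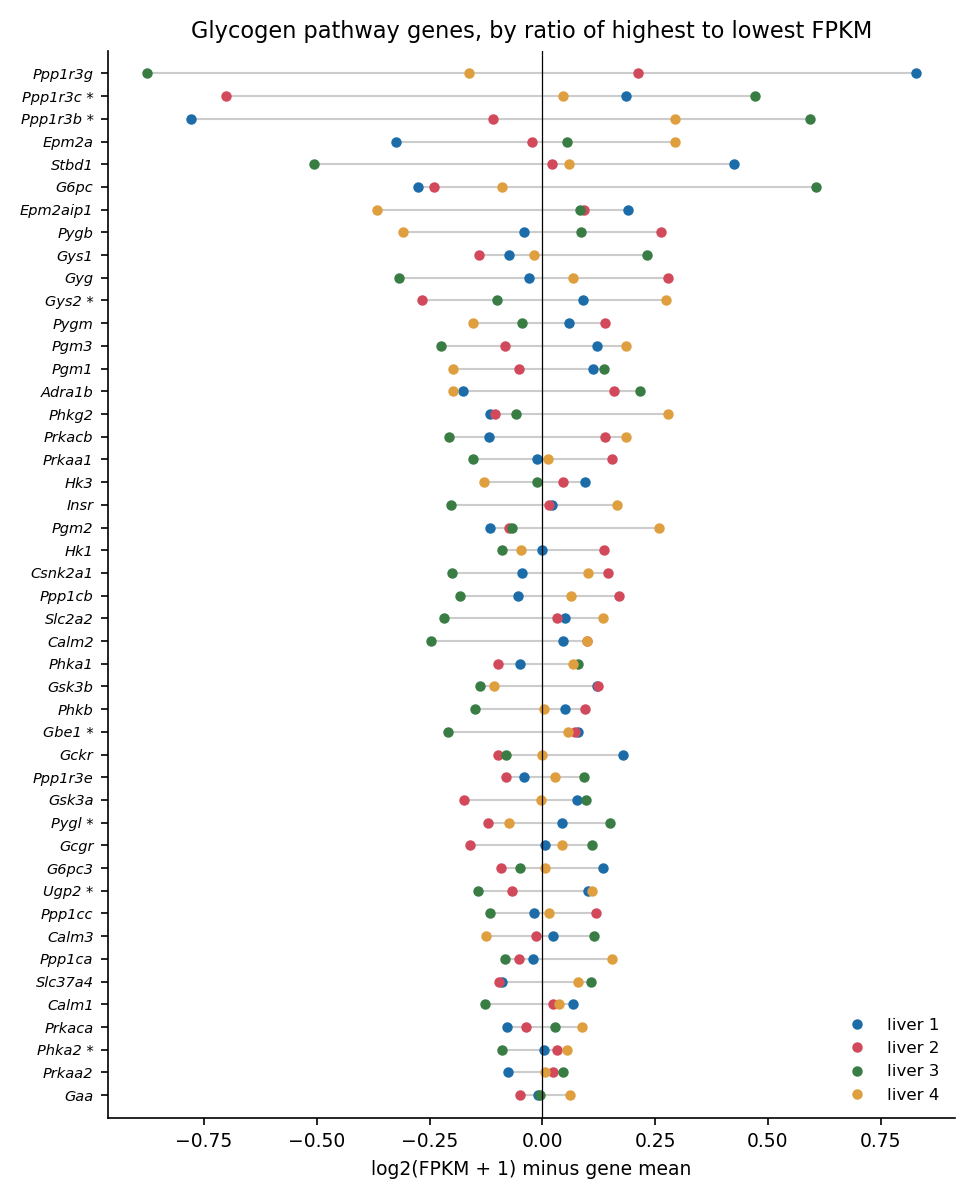
Deviation of log2(FPKM + 1) from the gene mean in livers 1 to 4 for the 7 glycogen genes (asterisks) and the 39 expressed genes of the surrounding lists, ordered by the ratio of highest to lowest FPKM. Ppp1r3c, Ppp1r3b and Ppp1r3g are among the widest and Gaa and Phka2 among the narrowest.

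No liver was high or low across all 7 genes. Liver 1 was above the gene's own mean of log2(FPKM + 1) in 6 of 7 (all but Ppp1r3b) and liver 4 in 6 of 7 (all but Pygl), although Ppp1r3c in liver 4, at 5.91 FPKM, was below its linear mean of 5.98 FPKM. With upper-quartile scaling the number for liver 4 was 3 of 7 (Gys2, Ugp2 and Ppp1r3b). Liver 2 was above it in 2 of 7 (Gbe1 and Phka2) and liver 3 in 3 of 7 (Pygl, Ppp1r3b and Ppp1r3c). The median deviation of the 7 genes was 0.08, -0.11, -0.09 and 0.06 on the log2 scale in livers 1 to 4, beside -0.01, -0.02, -0.01 and 0.04 over all expressed genes.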

How the data were processed

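Poly(A)-selected RNA sequencing of 4 livers was deposited by the authors as 1 table of FPKM values per gene and liver. The unit is not named in the file and was taken from the values and the Cufflinks-type identifiers. Per the submitters' processing notes, FastQC 0.10.1, Trim Galore 0.6.3, cutadapt, STAR 2.7.6a, Cufflinks 2.2.1 and the build mm10 were used, with no role or order given. Columns were matched through the sample descriptions, and 0 were left unmatched. Starts were raised by 1 to count from 1. Exons and gene spans are from GENCODE vM21 (GRCm38).

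Spreads and differences called log2 ratios were computed on log2(FPKM + 1), where differences between low values are compressed, and other ratios on FPKM with no pseudocount, with Python 3.11.15 and numpy 2.4.6. Depth was approximated from single-transcript genes longer than 800 bases, as 1 over the median product of FPKM and length less 200 bases between 25 and 75. The range of 25 to 75 was fixed, so a depth that places this product outside it could not have been returned. Fragments per gene follow from the longest coding transcript of the GENCODE basic set. Whole reads were not recovered. The labels form 1 group, so no contrast was tested. The Dixon ratio and the likeness measure were tested on simulated data. The members and lists were chosen with earlier results of these data known. Some listed genes are not reported here. Named genes are the members, the listed genes and the 3 genes of nearest profile, while Vps54 was added after its shared span was seen. Alternatives were pseudocounts of 0.1 and 5, minimum means of 5 FPKM or none, both scalings, the linear scale and leaving out each liver.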

Additional observations from a re-analysis of the deposited data

Results flagged for a closer look

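In 7 results a single liver lay far from the other 3, by the gap divided by the range over 4 livers. The family sums among them repeat the single genes Pgm2 (97.9% of its sum) and Phkg2 (99.7% of its sum). Chance alone flags about 1 in 20 groups. On log2(FPKM + 1), the scale used for single genes and ratios, 5.46% of expressed genes passed. On plain FPKM, the scale used for family sums, 5.64% passed. The 7 glycogen genes, 39 surrounding genes, ratios, family shares and family sums were all screened and overlap, so the 7 flags cannot be set against these rates. Gbe1 was low in liver 3 (ratio 0.916). Calm2, which encodes calmodulin, a subunit of phosphorylase kinase, was also low in liver 3, at 74.9 FPKM against 91.9 to 95.4 FPKM (ratio 0.843). Liver 4 was high for Pgm2, at 181 FPKM against 139 to 144 FPKM (ratio 0.869), and for the sum of Pgm1 and Pgm2 (ratio 0.879). Liver 4 was also high for Phkg2, at 18.7 FPKM against 14.0 to 14.6 FPKM (ratio 0.855), and for the sum of Phkg1 and Phkg2 (ratio 0.871). The ratio of Gys2 to Gyg was low in liver 2 (ratio 0.872).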

How the results depend on the processing

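The 4 livers limit every spread to a rough estimate, and the values carry no counts, so counting errors are approximate. The number of glycogen genes with a liver apart was 1 as reported and 0 both with median-ratio scaling and with upper-quartile scaling. The same number over the surrounding genes was 3 as reported, 2 with median-ratio scaling, 6 with upper-quartile scaling and 5 with no minimum, where the share of all genes rose from 5.46% to 11.3%. Leaving out each liver gave a median SD of the 7 genes from 0.10 to 0.16, beside 0.14 to 0.17 over all expressed genes. The 7 genes had the higher median without liver 2 and without liver 4. With pseudocounts of 0.1 and 5 the median over all expressed genes was 0.19 and 0.11, beside 0.14 and 0.13 over the 7. Leaving out each liver gave from 1 to 2 genes with a 1.5-fold range, and from 3 to 5 neighbouring pairs apart. Leaving out each liver also gave log2 ratios of Gys2 to Pygl from -0.62 to -0.42 and of Ppp1r3b to Ppp1r3c from 3.00 to 3.51. With pseudocounts of 0.1 and 5 the log2 ratio of Ppp1r3b to Ppp1r3c was 3.39 and 2.60, and the SD of Ppp1r3c was 0.59 and 0.30. The surrounding genes with a 1.5-fold range numbered 8 as reported, 4 with a minimum of 5 FPKM and 14 with no minimum. The share of all genes with a 1.5-fold range moved with the minimum too, from 28.4% to 18.1% at 5 FPKM and 50.7% with none. Of 90 other values recomputed with all livers kept, 78 stayed within the spread or, for counts, within 1.5 times. The 90 include shares within the Ppp1r3 family, which cannot change when a whole liver is rescaled. Signs were checked only for the log2 ratios of Gys2 to Pygl and of Ppp1r3b to Ppp1r3c, and 0 reversed. The Dixon ratio was not computed with 3 livers. No paired analysis was possible because the samples form a single group.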

Other observations

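Lists of feeding-responsive and clock genes were read in the same livers. Of 9 feeding-responsive genes, 6 had a ratio of at least 1.5 between the highest and the lowest liver, beside 28.4% of expressed genes, and without liver 3 the number was 2 (Pnpla3 and Igfbp1), beside 16.4%. Without liver 2 it was 4, beside 19.04%. Igfbp1, a fasting-induced binding protein gene, had 59.3, 104, 19.6 and 20.1 FPKM from liver 1 through liver 4, and Pck1, a gluconeogenic enzyme gene, had 1135, 903, 767 and 873 FPKM. Mlxipl, which encodes ChREBP, had 53.01, 48.2, 79.9 and 38.7 FPKM, and Srebf1 166, 135, 207 and 175 FPKM. Of 8 expressed clock genes, 4 reached 1.5, beside the same 28.4%, and without liver 3 the number was 2 (Nr1d1 and Cry1), beside 16.4%. Nr1d1 was listed at 52.7, 39.3, 25.4 and 23.9 FPKM and Cry1 at 2.88, 4.47, 5.85 and 6.03 FPKM, while Dbp varied from 93.6 to 118 FPKM. Arntl was listed at 0.549, 0.862, 1.12 and 0.554 FPKM. The 2 rows of the haemoglobin gene Hba-a1 and Alas2, the erythroid heme synthesis gene, summed to 1076, 829, 427 and 705 FPKM. Both Hba-a1 rows ordered the livers as Ppp1r3g did, whereas Alas2, at 55.8, 43.8, 64.0 and 56.96 FPKM, was highest in liver 3.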
